A study of Homo sapiens with 4 samples.

Results

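The genes described here are the 8 that write, copy and oxidise DNA methylation: the DNA methyltransferases DNMT1, DNMT3A and DNMT3B, the hemimethylation binder UHRF1 and its paralogue UHRF2, and the methylcytosine dioxygenases TET1, TET2 and TET3. They were chosen by name, as every row of the deposited gene table whose gene name equals one of these symbols, and all 8 were found among 40877 names of 1 gene. The libraries come from H1299, an established line of human non-small cell lung cancer, and HCT116, an established line of human colorectal cancer. Both were cultured in DMSO, the solvent, or in a pair of inhibitors, called DAC+SB here. DAC is decitabine, a cytidine analogue given at 500 nM for 72 h, and SB939 is a histone deacetylase inhibitor given at 500 nM for 18 h, with medium and compounds renewed every 24 h in cells at passage 5 to 10. Neither compound was analysed alone, so their contributions cannot be told apart. RNA was read from the 5′ end in single cells with 10x Genomics chemistry, in 1 library for each line and treatment, so no difference between libraries has a replicate check and no test was made. Intervals in parentheses are 95% intervals and cover counting error only.

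DNA methylation is copied after replication by DNMT1, which is brought to newly made, half-methylated CpG sites by UHRF1 and by the replication machinery. DNMT3A and DNMT3B place methyl groups on unmethylated CpG sites, and the TET enzymes oxidise methylcytosine, which opens a route back to unmethylated cytosine. Decitabine is built into DNA in place of deoxycytidine during S phase and traps DNA methyltransferases there as covalent adducts, which are then degraded. That loss is of protein. The present counts are of RNA and do not measure the enzymes themselves.

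The 4 libraries held between 3578 and 4327 cells and between 38927267 and 64524196 gene and transposable element (TE) counts. HCT116 DAC+SB was the shallowest, with a median of 8449 counts per cell against 15784.5 to 17369.5 in the others, and had the highest median mitochondrial share (18.6% against 8.33% to 15.8%). Levels are given as CPM, counts scaled to the sum of gene plus TE counts of the library. The H1299 marker list of 8 genes summed to 2873 and 1398 CPM in the H1299 libraries (DMSO first) and to 246 and 327 CPM in the HCT116 libraries. The HCT116 list of 8 genes summed to 0.434 and 19.8 CPM in H1299 and to 161 and 84.8 CPM in HCT116. With either treatment, the sum of each list was highest in the line it marks. VIM alone held 2282 and 1151 CPM of the H1299 list in H1299. With DAC+SB, COL4A2 of the H1299 list was higher in HCT116 (2.29 against 0.336 CPM). LGALS4 of the HCT116 list was higher in treated H1299 (1.60 against 1.08 CPM). Pairs of libraries shared 18 to 30 cell barcodes.

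Windows before a transcript start of UHRF1 and DNMT1 are shown because these genes had the largest counts and varied with S phase signal, as given further on. Each window is the 250 bases before a RefSeq transcript start on GRCh38.p14, written 5′ to 3′ on the gene's strand, with matches in capitals. They lie at chr19:4909251-4909500 (plus strand) for UHRF1 and chr19:10194954-10195203 (minus strand) for DNMT1. The starts they precede lie 6421 and 36333 bases inside the 5′ end of the gene in GENCODE v29. They are 3 and 19 bases from the nearest GENCODE transcript start of the gene. The GENCODE 5′ end of DNMT1 is at 10231286, beside that of S1PR2 at 10231331, a gene on the same strand that overlaps DNMT1. The UHRF1 window is 1 of 3 that RefSeq gives for that gene.
UHRF1: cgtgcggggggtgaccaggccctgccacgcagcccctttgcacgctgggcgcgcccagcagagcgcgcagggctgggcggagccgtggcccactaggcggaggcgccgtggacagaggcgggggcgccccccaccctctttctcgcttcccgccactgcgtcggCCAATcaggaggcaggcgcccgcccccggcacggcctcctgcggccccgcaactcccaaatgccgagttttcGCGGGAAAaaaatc
DNMT1: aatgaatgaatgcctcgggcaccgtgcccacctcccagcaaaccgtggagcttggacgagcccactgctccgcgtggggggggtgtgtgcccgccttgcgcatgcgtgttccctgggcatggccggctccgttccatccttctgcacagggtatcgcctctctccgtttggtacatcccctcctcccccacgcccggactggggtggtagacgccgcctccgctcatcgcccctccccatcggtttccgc
The motifs searched on both strands were 2 forms of the E2F motif, TTTCCCGC and TTTGGCGC, and the CCAAT box, CCAAT. E2F factors are known for driving genes of DNA replication at the start of S phase. All 8 genes had at least 1 RefSeq window, 19 windows in all, and 1 of these windows, the UHRF1 window shown, had an E2F match, GCGGGAAA, the reverse complement of TTTCCCGC. The other 2 UHRF1 windows had none. TTTCCCGC was in 1.39% of 35116 windows of the same length, and either of the 2 E2F forms searched was in 1.93%. CCAAT was in 6 of the 19 windows (31.6%), among them 2 of UHRF1, close to the 32.0% of all windows. The UHRF1 and DNMT1 windows shown held 28 and 21 CpG sites, against a median of 11 over all windows, and 84.1% and 69.8% of windows held fewer. The other UHRF1 windows held 32 and 41. The 1 RefSeq window of DNMT3B likewise precedes a start inside the gene, by 17467 bases. None of these windows of UHRF1, DNMT1 and DNMT3B describes the sequence at the 5′ end of the GENCODE gene. Of 17 genes of the S phase list used below that had a window, 8 held an E2F match, against 2.36% of all 27305 symbols. That list was picked from genes of DNA replication, the class named above for E2F. Its share is therefore no independent result and says nothing of the UHRF1 match. These matches describe the letters in the windows and show no binding.

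DNMT1 and UHRF1, the maintenance pair, were lower with DAC+SB in both lines, UHRF1 by more. DNMT1 was at 228.8 (225.1 to 232.5) CPM with DMSO and 107.9 (105.4 to 110.5) with DAC+SB in H1299, and at 201.2 (197.7 to 204.7) and 131.2 (127.6 to 134.8) CPM in HCT116, from 5107 to 14762 counts per library. All 4 intervals were apart, with both DMSO libraries above both treated ones. UHRF1 was at 76.5 (74.4 to 78.7) and 31.5 (30.1 to 32.9) CPM in H1299 and at 123.9 (121.2 to 126.7) and 28.3 (26.7 to 30.1) CPM in HCT116, DMSO first. The HCT116 DMSO library was the highest and the treated libraries of both lines lay close together. The log2 ratio of DAC+SB over DMSO was -1.08 (-1.13 to -1.04) in H1299 and -0.62 (-0.66 to -0.57) in HCT116 for DNMT1, and -1.28 (-1.36 to -1.21) and -2.13 (-2.22 to -2.04) for UHRF1. DNMT1 was therefore more reduced in H1299 and UHRF1 more reduced in HCT116. The H1299 log2 ratio minus the HCT116 one was -0.47 (-0.53 to -0.40) for DNMT1 and 0.85 (0.73 to 0.96) for UHRF1, differences with no replicate check.

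UHRF2, a paralogue of UHRF1 that also binds methylated DNA, was at 14.3 (13.4 to 15.3) and 8.41 (7.71 to 9.16) CPM in H1299 and 11.4 (10.6 to 12.3) and 6.99 (6.18 to 7.87) CPM in HCT116. Both DMSO libraries were above both treated ones, whose intervals overlapped. Its log2 ratio was -0.77 (-0.93 to -0.61) in H1299 and -0.71 (-0.91 to -0.50) in HCT116, with a difference between the lines of -0.06 (-0.32 to 0.19). In HCT116 DMSO 12.4% of its counts came from a numbered feature that was not listed in the other libraries, and without it the HCT116 ratio was -0.52 (-0.73 to -0.31).

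The de novo methyltransferases differed between the lines. DNMT3A was at 10.7 (9.91 to 11.5) and 8.75 (8.03 to 9.51) CPM in H1299 and at 7.54 (6.87 to 8.25) and 2.41 (1.95 to 2.96) CPM in HCT116, from 94 counts in the last library. The HCT116 DAC+SB library stood below the other 3, and the intervals of H1299 DAC+SB and HCT116 DMSO overlapped. The log2 ratio was -0.29 (-0.45 to -0.13) in H1299 and -1.64 (-1.98 to -1.32) in HCT116. DNMT3B was at 3.27 (2.84 to 3.74) and 6.41 (5.79 to 7.07) CPM in H1299 and at 10.8 (9.96 to 11.6) and 6.42 (5.65 to 7.27) CPM in HCT116. Among the 8 genes it alone had ratios of opposite sign in the lines, as its log2 ratio was 0.97 (0.73 to 1.22) in H1299 cells and -0.74 (-0.96 to -0.53) in HCT116 cells. The 2 lines were furthest apart with DMSO and had overlapping intervals with DAC+SB. A numbered feature held 24.3% and 26.0% of DNMT3B counts in HCT116 and was not listed in H1299. Over features listed in both treated libraries DNMT3B was 0.43 higher in H1299 on the log2 scale, where the sum of all features gave 0.00.

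**Figure D1:**
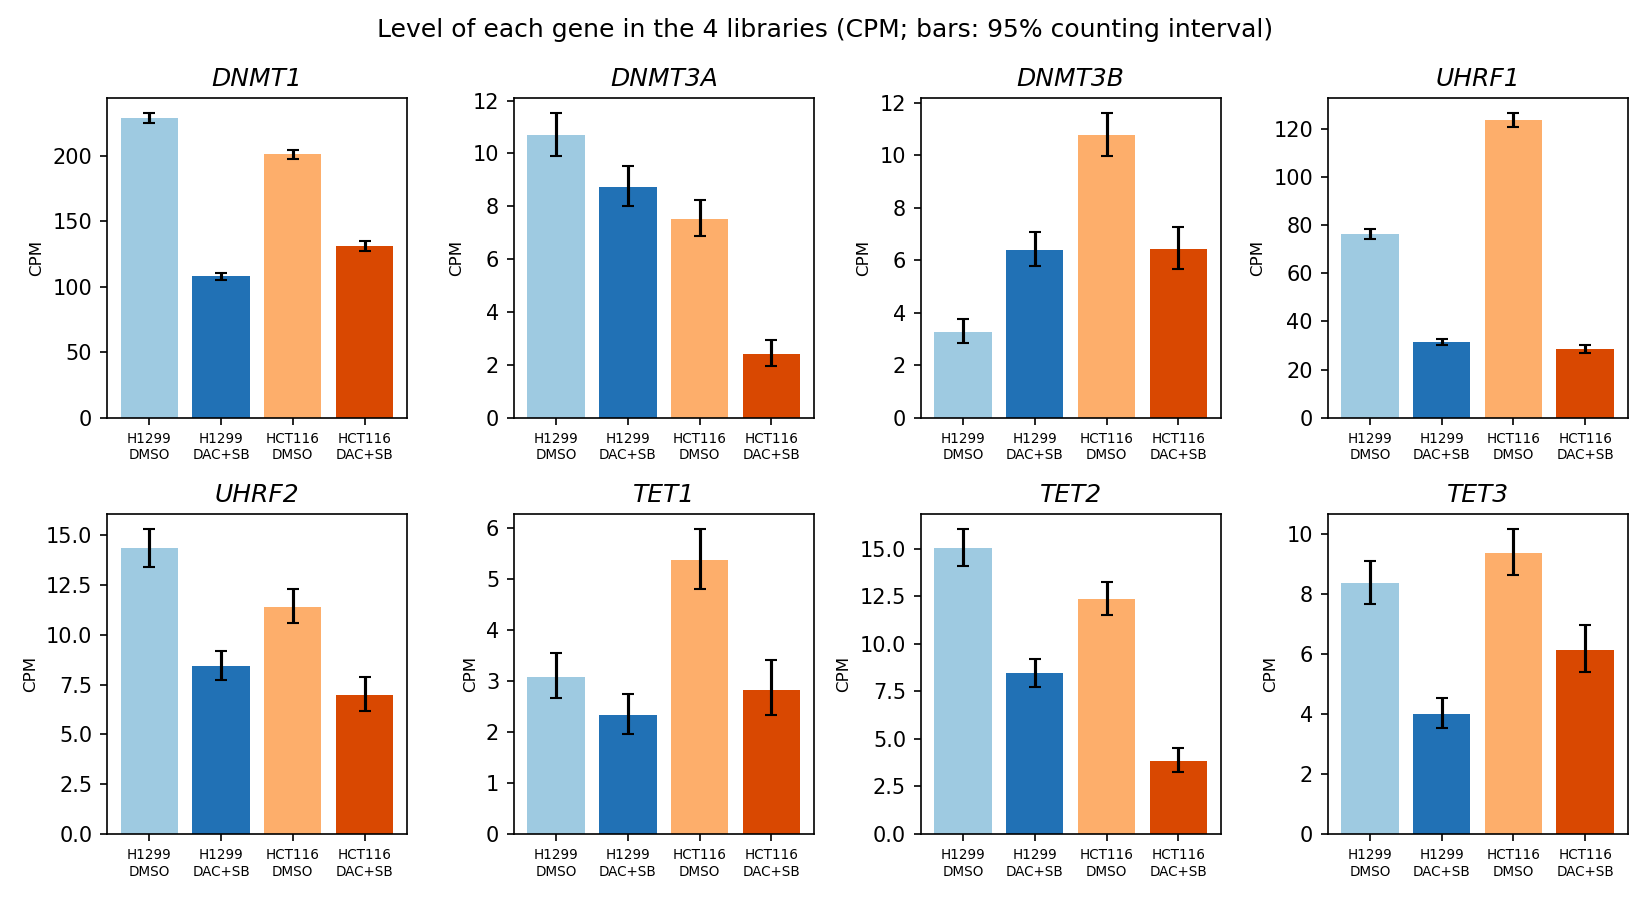
Level of each of the 8 genes in the 4 libraries, in CPM of gene plus TE counts, with bars for the 95% counting interval and an axis of its own for each gene. DNMT3B is lowest in H1299 DMSO (3.27 CPM) and highest in HCT116 DMSO (10.8 CPM), while UHRF1 is at 31.5 and 28.3 CPM in the treated libraries of the 2 lines.

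All 3 TET genes had lower levels in the treated library of each line, and the lines differed in which was reduced most. TET1 was at 3.08 (2.67 to 3.54) and 2.32 (1.96 to 2.73) CPM in H1299 and at 5.36 (4.81 to 5.97) and 2.83 (2.32 to 3.41) CPM in HCT116. Only HCT116 DMSO stood apart, and the other 3 intervals overlapped. TET2 was at 15.0 (14.1 to 16.0) and 8.46 (7.75 to 9.21) CPM in H1299 and at 12.4 (11.5 to 13.3) and 3.83 (3.24 to 4.49) CPM in HCT116, with no overlap. TET3 was at 8.35 (7.66 to 9.09) and 4.005 (3.52 to 4.53) CPM in H1299 and at 9.36 (8.61 to 10.1) and 6.14 (5.39 to 6.97) CPM in HCT116, where the DMSO intervals overlapped and the treated ones did not. The log2 ratios in H1299 and HCT116 were -0.41 (-0.73 to -0.09) and -0.92 (-1.25 to -0.61) for TET1, -0.83 (-0.99 to -0.68) and -1.69 (-1.95 to -1.44) for TET2, and -1.06 (-1.28 to -0.84) and -0.61 (-0.83 to -0.39) for TET3. Over all cells TET2 was thus more reduced in HCT116 and TET3 in H1299, by 0.86 (0.56 to 1.15) and -0.45 (-0.76 to -0.15) as H1299 minus HCT116. The antisense gene TET2-AS1 lies within TET2 (chromosome 4, 105171354 to 105178063 inside 105145875 to 105279816 on GRCh38, GENCODE v29). The sources used here do not say whether strand was used in counting.

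A gene was called different where the ratio was at least 2-fold and the higher library held 100 counts or more. In H1299 3 of the 8 genes, DNMT1, UHRF1 and TET3, were called lower, against 7.34% of the 14610 genes compared. In HCT116 3 of the 8, DNMT3A, UHRF1 and TET2, were called lower, against 20.0% of 13539 genes. None was called higher in either line, where 18.3% and 16.2% of genes were. Read as a mean over cells of the level in each cell, TET3 was at -0.98 and DNMT3B at 1.06 in H1299, which ended the call of TET3 and called DNMT3B higher, where 7.10% of genes were called lower and 18.3% higher. UHRF1 was the gene called in both lines, and DNMT3B in H1299 (1.96-fold higher) and TET1 in HCT116 (1.90-fold lower) were just short of the threshold. The median log2 ratio of the 8 genes was -0.80 in H1299 and -0.83 in HCT116, beside medians of -0.07 and -0.23 over all genes compared. In HCT116 59.4% of genes were below 0, and DNMT1, at -0.62 there, had 33.7% of genes below it. In H1299 5.80% of genes were below DNMT1. UHRF1 had 3.31% of genes below it in H1299 and 2.83% in HCT116.

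**Figure D2:**
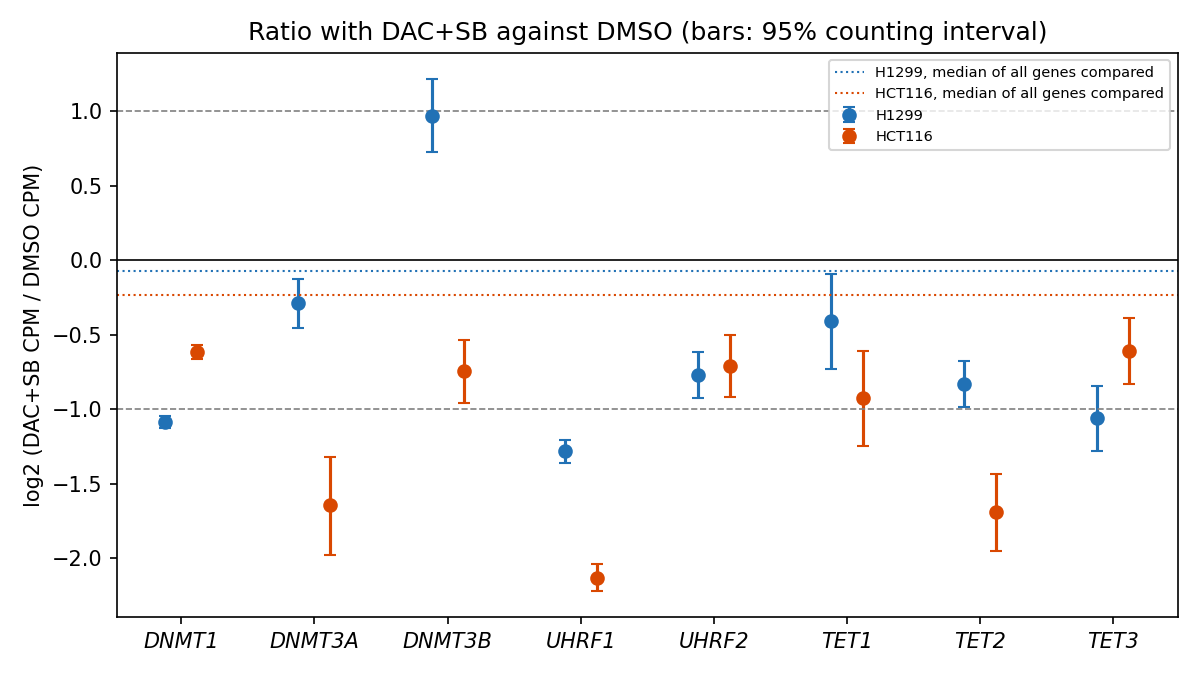
Log2 ratio of the DAC+SB level over the DMSO level for each gene in H1299 (blue) and HCT116 (orange), with 95% counting intervals, the 2-fold limits as dashed lines and the median of all genes compared in each line as dotted lines. UHRF1 lies below the lower limit in both lines (-1.28 and -2.13), and DNMT3B is at 0.97 in H1299 and -0.74 in HCT116.

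Between the lines under DMSO, 1 of the 8 genes was called. DNMT3B was 3.29-fold higher in HCT116, where 15.2% of 13796 genes were called lower in H1299 and 20.5% higher. UHRF1 and TET1 were 1.62-fold and 1.74-fold higher in HCT116, and DNMT3A 1.42-fold higher in H1299. Under DAC+SB 2 were called, both higher in H1299: DNMT3A by 3.62-fold and TET2 by 2.21-fold, where 25.4% of 14875 genes were called higher and 12.1% lower. The median of all genes was 0.29 on the log2 scale in that comparison, and scaling by trimmed means (TMM) or by median ratios moved all log2 ratios by -0.15 or -0.18, which put TET2 at 1.00 and 0.96 and ended its call. UHRF1, at 0.15 (0.04 to 0.26), went to -0.03 with median ratios, so its direction between the treated lines was not fixed.

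The deposited table lists some genes as several numbered features without saying what the numbers mean. Features of DNMT1 and UHRF1 differed in their response. The DNMT1 feature without a number, which held 43.1% to 63.9% of its counts, was at -1.31 (-1.37 to -1.26) in H1299 on the log2 scale and at -0.76 (-0.84 to -0.69) in HCT116, while the numbered one was at -0.75 (-0.81 to -0.69) and -0.49 (-0.56 to -0.43). In UHRF1 the order was the other way round, with -1.08 (-1.18 to -0.99) and -1.89 (-2.02 to -1.75) without a number and -1.66 (-1.79 to -1.52) and -2.31 (-2.43 to -2.18) for the numbered feature. All 4 DNMT1 and all 4 UHRF1 values were below 0. TET2 had a small numbered feature (10.98% to 20.5% of counts) at -1.24 and -2.23, beside -0.77 and -1.58 without a number. DNMT3A, TET1 and TET3 had no numbered feature. A name joining DNMT1 with S1PR2, a gene that overlaps it on the same strand, held 1 to 8 counts per library and was left out.

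The share of cells with a count was compared after each cell was thinned to 3300 counts, which left out 402 HCT116 DAC+SB cells and none of the others. DNMT1 had a count in 50.4% (48.7 to 52.0) of H1299 DMSO cells and 26.1% (24.7 to 27.6) of H1299 DAC+SB cells, and in 46.1% (44.4 to 47.7) and 32.9% (31.4 to 34.4) of HCT116 cells. Unthinned, these shares were 90.8%, 67.2%, 88.8% and 57.2%. UHRF1 had a count in 19.4% (18.1 to 20.8) and 8.96% (8.07 to 9.93) of H1299 cells and in 30.3% (28.9 to 31.9) and 7.90% (7.07 to 8.79) of HCT116 cells, or 55.9%, 29.1%, 66.2% and 17.1% unthinned. The thinned shares of both genes were thus lower with DAC+SB in each line. The other 6 genes had a count in 0.590% to 5.28% of thinned cells. TET2 had one in 5.28% (4.57 to 6.07) and 2.84% (2.33 to 3.43) of H1299 cells and in 3.83% (3.23 to 4.501) and 1.17% (0.86 to 1.56) of HCT116 cells, DMSO first. DNMT3A went from 2.13% (1.69 to 2.65) to 0.76% (0.52 to 1.09) in HCT116, and DNMT3B from 0.92% (0.64 to 1.29) to 1.96% (1.54 to 2.46) in H1299. Unthinned, the shares were 20.8%, 12.1%, 15.3% and 2.98% for TET2, 10.1% and 1.96% for DNMT3A in HCT116, and 5.17% and 9.29% for DNMT3B in H1299. No cell type that lacks these genes was analysed here, so the share that free RNA alone would give is not known.

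Because DNMT1 and UHRF1 are known to be expressed with the cell cycle, cells were divided by their counts of a mitotic list of 15 genes and an S phase list of 20 genes, neither of which holds any of the 8. A thinned cell with 3 or more list counts is called with signal here, and one with 0 without. The share of cells with mitotic signal went from 67.8% (66.2 to 69.3) with DMSO to 50.8% (49.2 to 52.5) with DAC+SB in H1299, and from 63.7% (62.1 to 65.3) to 43.4% (41.8 to 44.9) in HCT116. The share with S phase signal went from 76.2% (74.8 to 77.6) to 39.1% (37.6 to 40.7) in H1299 and from 78.8% (77.4 to 80.1) to 47.4% (45.9 to 49.0) in HCT116. Names that join a list gene with another were left out, and held 46.6% to 75.6% of the counts of RRM2 and its joined name, a share that was higher with DAC+SB in both lines. For FEN1 they held 35.0% and 46.4% with DMSO and 0.585% and 0.337% with DAC+SB. With joined names added, an alternative chosen after the data were seen, the share with S phase signal was 78.6% and 44.7% in H1299 and 81.5% and 54.6% in HCT116, DMSO first. No joined name held a mitotic gene. These classes are ranges of a count, with 276 to 733 cells per library just above or just below the mitotic limit, and free RNA can add list counts to any cell. The part of these shares in the differences between libraries was not tested. The values within classes given below compare cells of like list counts only. Over all cells, 10 of the 20 S phase genes in H1299 and 7 in HCT116 were called lower with DAC+SB (7.34% and 20.0% of all genes). Treated and DMSO cells of 1 class therefore need not be matched for cycle stage, and these values cannot set that part.

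DNMT3B was at least 2-fold higher in cells with mitotic signal in all 4 libraries. With and without signal it was at 3.83 and 0.393 CPM in H1299 DMSO (173 and 2 counts), 8.16 and 3.49 in H1299 DAC+SB, 13.2 and 4.68 in HCT116 DMSO and 8.37 and 3.82 in HCT116 DAC+SB. The log2 ratios were 3.28 (1.41 to 6.34), 1.22 (0.79 to 1.69), 1.49 (0.90 to 2.15) and 1.13 (0.52 to 1.80) in that order. Cells with 1 or 2 list counts lay between in each library. The call did not hold in the treated libraries when unthinned cells were split at the library's median mitotic share, with log2 ratios of 0.96 in H1299 and 0.60 in HCT116, nor in HCT116 DAC+SB with signal set at 1 list count (0.89) or at 5, where fewer than 100 counts were left. The unthinned split gave 1.29 in H1299 DMSO and 1.41 in HCT116 DMSO. By S phase signal DNMT3B was not called in any library, with log2 ratios from -0.08 to 0.85, but in HCT116 DAC+SB it went from 0.80 to 1.22 (0.40 to 2.16) and was called with joined names added to the S phase list.

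In each library DNMT1 was lowest in cells without signal, for either signal. With and without mitotic signal it was at 249.1 and 135.8 CPM in H1299 with DMSO, 139.8 and 53.0 in H1299 with DAC+SB, 204.7 and 169.4 in HCT116 with DMSO and 153.0 and 88.1 in HCT116 with DAC+SB. The log2 ratio reached 2-fold in H1299 DAC+SB, at 1.40 (1.29 to 1.51), and was 0.87, 0.27 and 0.80 in H1299 DMSO, HCT116 DMSO and HCT116 DAC+SB. By S phase signal it was 1.01 (0.87 to 1.16) and 1.17 (1.07 to 1.28) in H1299 and 0.50 (0.31 to 0.70) and 0.58 (0.44 to 0.73) in HCT116, DMSO first. The spread of DNMT1 over either signal was wider in H1299 than in HCT116 under the same treatment.

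UHRF1 followed S phase signal in all 4 libraries and mitotic signal in the treated ones. With and without S phase signal it was at 87.5 and 20.9 CPM in H1299 with DMSO, 50.1 and 12.8 in H1299 with DAC+SB, 135.3 and 53.1 in HCT116 with DMSO and 36.5 and 13.0 in HCT116 with DAC+SB. The log2 ratios were 2.07 (1.72 to 2.44), 1.98 (1.75 to 2.21), 1.35 (1.03 to 1.69) and 1.49 (1.12 to 1.89). These placed UHRF1 above 99.2%, 98.8%, 97.6% and 99.3% of the genes compared. With and without mitotic signal UHRF1 was at 42.2 and 12.1 CPM in H1299 DAC+SB and 34.2 and 12.8 CPM in HCT116 DAC+SB, log2 ratios of 1.80 (1.57 to 2.03) and 1.42 (1.10 to 1.76). With unthinned cells split at the library's median mitotic share these were 1.28 and 0.73, so the HCT116 call was lost. With DMSO it was highest in cells with 1 or 2 mitotic counts in both lines, at 91.5 CPM in H1299 and 149.7 CPM in HCT116. There the ratio of cells with to cells without mitotic signal was 0.48 (0.30 to 0.67) in H1299 cells and -0.32 (-0.43 to -0.20) in HCT116 cells on the log2 scale. In H1299 it was -0.47 when unthinned cells were split at the library's median share, so the H1299 direction depended on that choice.

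The 5 other genes were not called by mitotic signal in any library, but some were under the minimum count and could not be called. These were TET1 in H1299 DAC+SB (82 counts with signal) and DNMT3A, TET1 and TET2 in HCT116 DAC+SB (41, 46 and 69). DNMT3A had a lower level with signal than without in H1299 DMSO (9.66 and 16.5 CPM, log2 ratio -0.77, -1.11 to -0.42) and a higher one in HCT116 DMSO (7.94 and 5.27 CPM, 0.59, 0.02 to 1.22). In the treated libraries DNMT3A was level across the classes, at 8.50 to 9.17 CPM in H1299 and 2.43 to 2.56 CPM in HCT116. TET1 was at -0.73 (-1.35 to -0.07) in H1299 DMSO but at 0.19 with the unthinned split, so its direction there was not fixed. UHRF2 was at 0.58 (0.24 to 0.93) and TET2 at -0.38 (-0.68 to -0.08) in H1299 DAC+SB. The other intervals of UHRF2, the TET genes and DNMT3A by mitotic signal included 0.

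Over the 8 genes, those called by mitotic signal were DNMT3B in H1299 DMSO, DNMT1, DNMT3B and UHRF1 in H1299 DAC+SB, DNMT3B in HCT116 DMSO, and DNMT3B and UHRF1 in HCT116 DAC+SB, that is 1, 3, 1 and 2 genes, all higher with signal. TET1 in H1299 DAC+SB, and DNMT3A, TET1 and TET2 in HCT116 DAC+SB, were under the minimum count and could not be called. The background, of genes that met the minimum, was 3.05%, 5.63%, 2.12% and 2.84% called higher. Genes called lower were 0.91%, 0.935%, 0.0784% and 0.22%. By S phase signal UHRF1 was called higher in all 4 libraries and DNMT1 in both of H1299, where 5.45% and 4.46% of genes were called higher in H1299 and 4.77% and 2.25% in HCT116. Genes called lower by S phase signal made up 1.54% and 0.361% in H1299 and 1.79% and 0.214% in HCT116. None of the 8 was among them. For this signal TET1 and TET3 in H1299 DAC+SB, and DNMT3A, TET1 and TET2 in HCT116 DAC+SB, were under the minimum count. DNMT3A in HCT116 DAC+SB was at 1.24 (0.02 to 2.75) on the log2 scale, from 53 counts with and 6 without signal. With joined names added, the calls of UHRF1 and DNMT1 held. Besides DNMT3B in HCT116 DAC+SB (3.19% of genes called higher), UHRF2 was then called higher (1.12) and TET3 lower (-1.01) in HCT116 DMSO, where 5.74% of genes were called higher and 2.52% lower. Cells of 1 library are not replicates, and cells with signal had more counts than those without (17834 against 15202 at the median for mitotic signal in H1299 DMSO, 9532.5 against 8650 in HCT116 DAC+SB). The part of depth in these ratios was not tested.

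**Figure D3:**
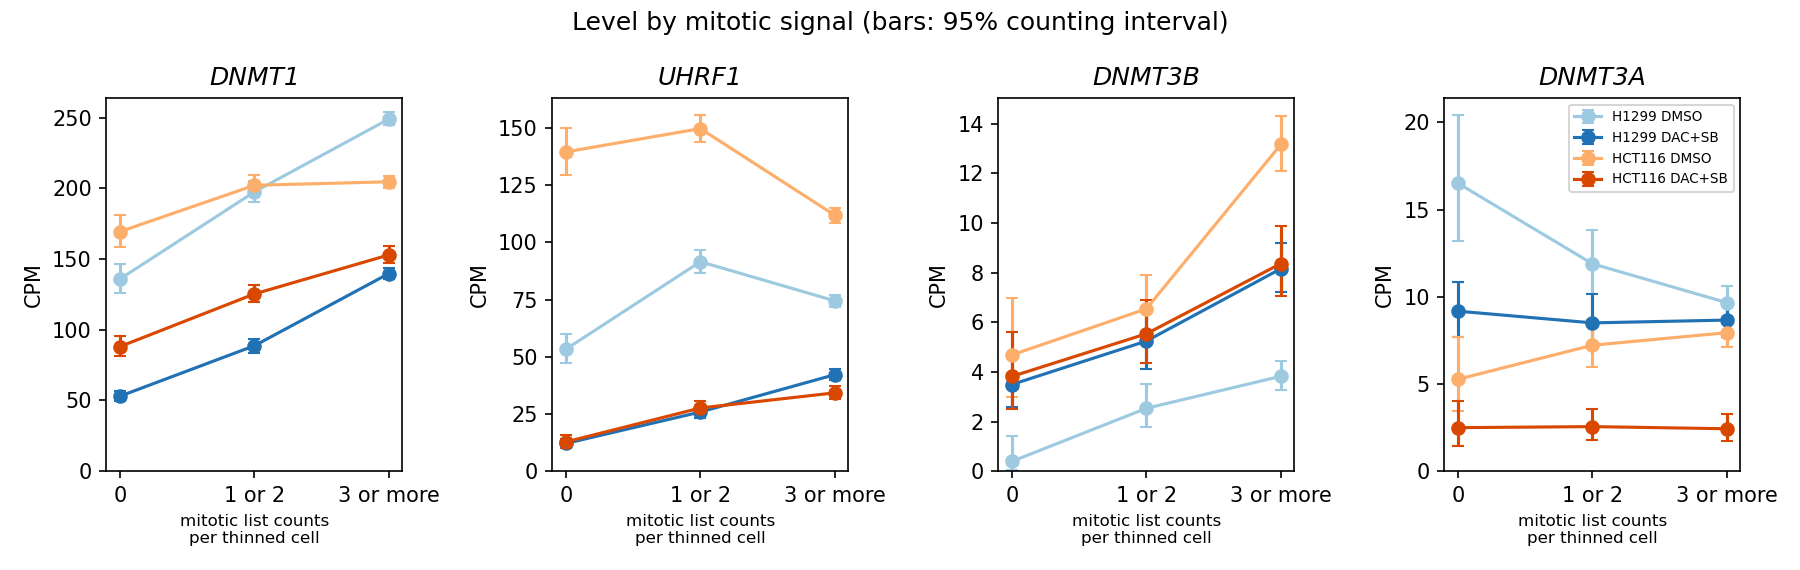
Level of DNMT1, UHRF1, DNMT3B and DNMT3A (CPM of gene plus TE counts, 95% counting intervals) in cells with 0, with 1 or 2, and with 3 or more counts of the mitotic list after thinning, as 1 line per library. DNMT3B is higher in cells with 3 or more counts in all 4 libraries, and UHRF1 with DMSO peaks in cells with 1 or 2 counts (91.5 and 149.7 CPM).

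The reduction of UHRF1 and DNMT1 with DAC+SB was then read within cells of the same class. In cells with S phase signal the log2 ratio of UHRF1 was -0.80 (-0.89 to -0.71) in H1299, under 2-fold, and -1.89 (-2.01 to -1.78) in HCT116. In cells without S phase signal it was -0.71 (-1.13 to -0.29) and -2.03 (-2.53 to -1.54), from 67 and 80 DMSO counts. In H1299 the reduction within these classes was thus smaller than over all cells (-1.28), and in HCT116 it stayed close to the -2.13 over all cells. Between cells with and without mitotic signal the ratio differed more, at -0.82 (-0.91 to -0.73) and -2.14 (-2.42 to -1.86) in H1299 and at -1.71 (-1.84 to -1.58) and -3.45 (-3.79 to -3.13) in HCT116. UHRF1 in HCT116 cells without mitotic signal went from 139.5 (129.5 to 150.1) to 12.8 (10.2 to 15.8) CPM, the furthest of any of the 8 genes in any class with 100 counts or more.

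DNMT1 was below its DMSO level in every class of both lines. Its log2 ratio was -0.78 (-0.83 to -0.72) in H1299 cells with S phase signal and -0.94 (-1.11 to -0.76) in those without, and -0.49 (-0.55 to -0.43) and -0.57 (-0.81 to -0.34) in HCT116. In cells with and without mitotic signal it was -0.83 (-0.88 to -0.78) and -1.36 (-1.51 to -1.21) in H1299 and -0.42 (-0.48 to -0.36) and -0.94 (-1.10 to -0.79) in HCT116. TET2 in HCT116 was between -2.06 and -1.16 in the 6 classes, and DNMT3A in HCT116 between -1.91 and -1.08 (6 to 53 treated counts), so neither depended on the class for its direction. In cells without S phase signal UHRF2 in HCT116 was at 0.08 (-0.97 to 1.26) and TET1 in H1299 at 0.14 (-1.06 to 1.56), from 10 and 7 DMSO counts, so their lower levels over all cells were not seen in that class at this depth. DNMT3B in H1299 was above its DMSO level in every class, at 1.09 (0.81 to 1.38) in cells with mitotic signal and 1.13 (0.82 to 1.44) in cells with S phase signal, both past 2-fold.

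In cells with S phase signal, TET3 was called lower and DNMT3B higher in H1299, and DNMT3A, UHRF1 and TET2 were called lower in HCT116. The background there was 6.97% of genes called lower and 11.8% called higher in H1299, and 19.6% and 11.2% in HCT116. The HCT116 genes called were those called over all cells. In H1299, DNMT1 and UHRF1 were no longer called at that class, at 1.71-fold and 1.75-fold lower. The genes called in this class were the same with joined names added to the list. In cells with mitotic signal, TET2 in H1299 and TET1 in HCT116, not called over all cells, were just past 2-fold, both at -1.01. There 6.91% and 20.0% of genes were below them.

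**Figure D4:**
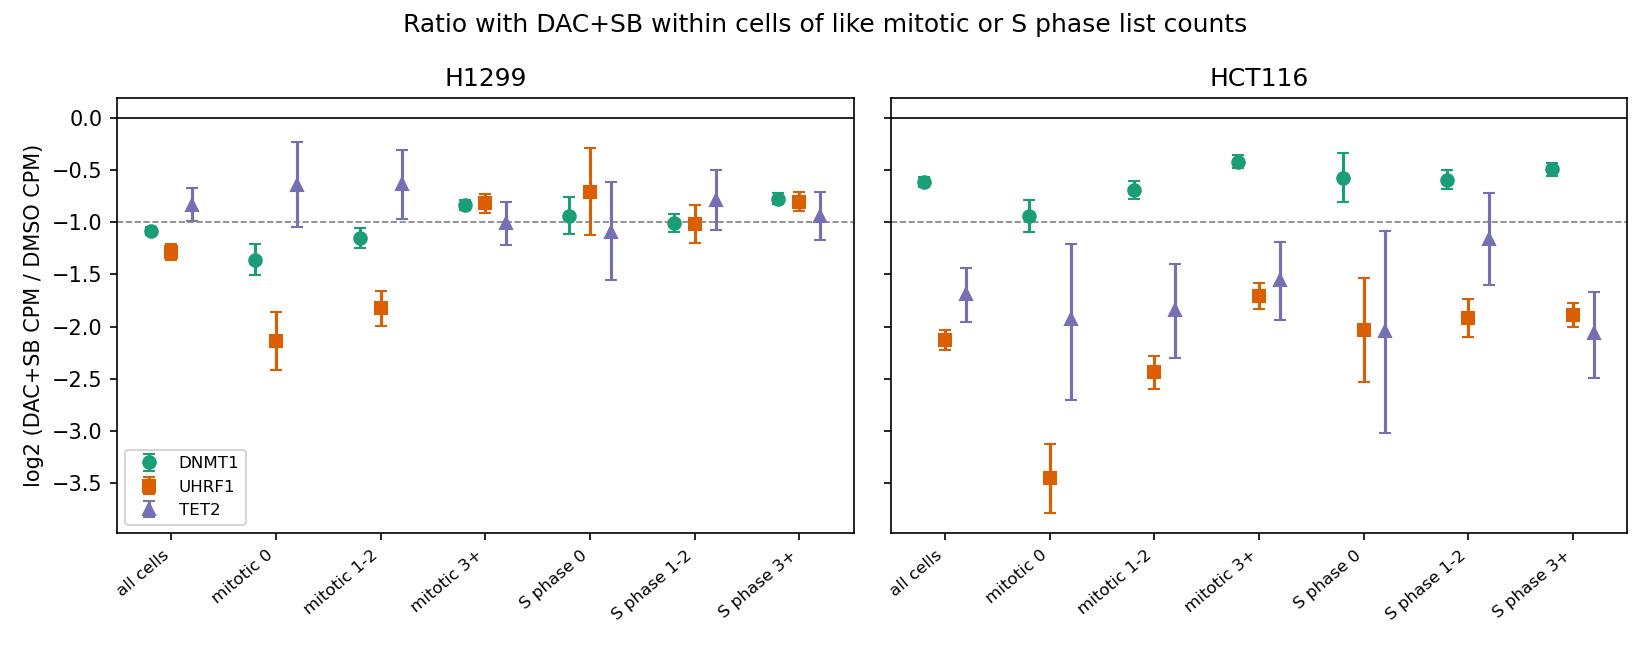
Log2 ratio of DAC+SB over DMSO for DNMT1, UHRF1 and TET2 over all cells and within cells of 0, of 1 or 2, and of 3 or more counts of the mitotic or S phase list, with 95% counting intervals and the 2-fold limit as a dashed line. UHRF1 lies lowest in cells with 0 mitotic counts (-2.14 in H1299 and -3.45 in HCT116), and all points are below 0.

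Detection of UHRF1, and of DNMT1, moved with S phase signal cell by cell. Among thinned cells with a UHRF1 count, 86.8% had S phase signal in H1299 DMSO, against 73.6% of cells without one. In H1299 DAC+SB these shares were 58.7% and 37.2%, in HCT116 DMSO 85.5% and 75.8%, and in HCT116 DAC+SB 62.3% and 46.2%. For cells with and without a DNMT1 count the shares were 80.9% and 71.5% in H1299 DMSO and 50.0% and 35.3% in H1299 DAC+SB. In HCT116 they were 81.1% and 76.7% with DMSO and 52.5% and 45.0% with DAC+SB. A DNMT1 count was found in 36.2% (31.1 to 41.6) of H1299 DAC+SB cells with UHRF1 and in 25.1% (23.7 to 26.6) of those without. In the other libraries the shares lay closer, at 52.8% and 49.8% in H1299 DMSO, 48.9% and 44.8% in HCT116 DMSO, and 34.8% and 32.7% in HCT116 DAC+SB.

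The genes most like each of the 7 members with 1000 or more counts were found over 12 sums, 4 libraries by 3 mitotic classes, as the smallest root mean square difference of centred log2(CPM + 1) among 11068 genes. For UHRF1 they were MCM5, a subunit of the replicative helicase, BRIP1, a DNA helicase of crosslink repair, and TYMS, thymidylate synthase, with differences of 0.23, 0.29 and 0.29 against a median of 1.17 over all candidates. For DNMT1 they were SUV39H2, a histone H3 lysine methyltransferase, STRA13 and RBL1, a member of the retinoblastoma family, at 0.13, 0.16 and 0.16 against a median of 0.70. The DNMT3A profile was closest to MED12, SLC44A1 and ABHD14B (0.14 to 0.16). DNMT3B, with 1535 counts in all and 2 in one of the sums, was closest to TMEM99, TUBD1 and NEURL1B, at 0.37 to 0.40 against a median of 0.95. UHRF2 was closest to PRKRA, LRRC57 and EPC2, TET2 to EIF4B, USP34 and GCFC2, and TET3 to FAM208B, USP36 and NEMF, all at 0.10 to 0.14. The 12 sums share libraries and their depth, so these are descriptions. TET1 had fewer than 1000 counts and was not ranked.

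The other genes of the pathway were counted as fixed lists. Of 24 partners and readers of DNA methylation 23 were in the table, and 21 had 100 counts or more in a library of each line. In H1299 3 of the 21 were called lower and 1 higher, beside 7.34% and 18.3% of all genes compared. In HCT116 10 of the 21 were called lower and 1 higher, beside 20.0% and 16.2% of all genes. The median log2 ratios were -0.55 and -0.94, beside -0.07 and -0.23 over all genes. CDCA7, the partner of the remodeller HELLS, was at -1.73 and -1.74, and HELLS at -1.04 and -1.11. PCLAF, a factor bound to the replication clamp PCNA, was at -0.91 and -1.38, but a name joining it with CTD-2116N17.1 held 89.7% to 92.4% of the counts of both names and was left out. ZBTB4, a reader of methylated CpG, was at -0.84 and -2.20. ZFP57, a zinc finger protein of imprinted regions, was at 0 counts with DMSO in each line and at 217 and 157 with DAC+SB. Its log2 ratios were 6.22 and 6.40 with the DMSO library set to 3 counts. The exact intervals began at 5.91 and 6.08, bounds that hold only if no unlisted feature had counts with DMSO.

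A list of 19 genes held genes of base excision repair and genes linked to the cofactors of TET enzymes, together with OGT and the GADD45 genes. It is not limited to steps that follow TET oxidation. Of the 19, 17 had 100 counts or more in a library of H1299 and all 19 in HCT116. In H1299 2 of the 17 were called lower and none higher, beside 7.34% and 18.3% of all genes. In HCT116 4 of the 19 were called lower and 2 higher, a share of lower calls near the 20.0% of all genes, beside 16.2% called higher. The medians were -0.35 and -0.34. UNG, a uracil DNA glycosylase, was at -2.41 and -2.56, and the ligase LIG3 at -1.59 and -1.50. APEX1, the abasic site endonuclease, was at -0.74 and -1.53. GADD45G, a stress-induced gene, had 5 DMSO counts against 503 in HCT116, 7.34 on the log2 scale, and 0 against 5 in H1299. MBD4 is also in the list of readers.

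A list of 11 genes held genes that take up or metabolise decitabine, together with RRM1, RRM2 and TYMS, which make deoxynucleotides. Of the 11, 3 were called lower and 1 higher in H1299, beside 7.34% and 18.3% of all genes. In HCT116 7 were called lower and none higher, beside 20.0% and 16.2%. TYMS was among those called lower in both lines, and RRM1 in HCT116. The medians were -0.76 and -1.39. CDA, cytidine deaminase, which inactivates the drug, had 1 DMSO count against 530 in H1299, 9.10 (6.61 to 14.40) on the log2 scale, and was at 0.24 in HCT116. DCTD, deoxycytidylate deaminase, was at -1.08 and -2.01. SLC29A2, an equilibrative nucleoside transporter, was at 0.37 and -2.54, and TYMS at -1.38 and -2.56. DCK, the kinase that activates decitabine, was at -0.57 and -1.48. DCK and HELLS fall outside the rule for naming list genes and were named after their values were seen.

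Of 10 genes of methyl donor supply none was called in H1299, beside 7.34% of all genes called lower and 18.3% higher. In HCT116 3 were called lower and none higher, beside 20.0% and 16.2%, and the medians were -0.24 and -0.61. MTHFD1, a folate enzyme, was at -0.999 and -1.63, methionine synthase MTR at -0.83 and -1.003, its reductase MTRR at -0.97 and -0.51, and AHCYL1 at 0.02 and -1.03. Of the 20 S phase genes 10 were called lower in H1299 and 7 in HCT116, beside the same 7.34% and 20.0% of all genes, and none higher, with medians of -0.98 and -0.63. MCM2, MCM3 and MCM5, subunits of the replicative helicase, were at -1.24, -1.65 and -1.63 in H1299 and -1.96, -1.56 and -2.03 in HCT116. Of the 15 mitotic genes none was called lower in H1299 (7.34% of all genes) and 7 in HCT116 (20.0% of all genes). None was called higher in either line, and the medians were -0.51 and -0.89. CCNB2, PLK1, HMMR and TPX2 were at -0.70, -0.63, -0.24 and -0.51 in H1299 and -1.31, -1.55, -1.28 and -1.42 in HCT116. In each line 14 of the 15 were below 0. CDC20, named after its values were seen, was above 0, at 0.69 and 0.52. TYMS and RRM2 are in the decitabine list as well as the S phase list, and PCNA is in the list of partners as well as the S phase list. UHRF1 at -1.28 and -2.13 was thus below the S phase median in both lines, and DNMT1 at -1.08 and -0.62 was close to it.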

How the data were processed

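The 2 tables the authors deposited hold whole counts per feature and cell, 1 for genes and 1 for TE. All 15289 cells were assigned to 4 libraries by the suffix of the cell name, as in the labels. Per the submitters' processing notes CASAVA and STAR were used and the builds named are GRCh38 and hg38. Whether the counts are of unique molecular identifiers, how cells were filtered and whether strand was used is not given in the sources analysed. No numbered feature was listed with fewer than 10 counts, so an unlisted one may have lost counts.

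Features of a gene were summed. The 2419 names that join several genes were left out of comparisons and kept in totals. Counts were summed over cells and scaled by gene plus TE counts. Levels carry exact Poisson intervals, ratios exact conditional binomial intervals, shares Clopper-Pearson intervals, and differences between log2 ratios a normal approximation, all at 95% and for counting error only. A gene at 0 was set to 3 counts. Cells were thinned to 3300 counts by a seeded hypergeometric draw. Doublets were not called, and an alternative dropped the 5% of cells highest in counts. The comparisons of classes share their libraries, and the comparisons of treatments and lines share libraries too. The calculation was tested on simulated data.

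Named were the 8 genes, up to 4 genes per list with the largest absolute log2 ratio in either line at 100 counts or more, and the 3 most similar genes per member. The members and lists were chosen with earlier results of these data known. Alternatives were scaling with edgeR 4.0.16 TMM or DESeq2 1.42.0 size factors in R 4.3.3, another denominator, features, minimum, fold, cell filter and class limit. Analyses used Python 3.11.15, NumPy 2.4.6, SciPy 1.17.1 and pandas 2.3.3. Promoter windows are from RefSeq on GRCh38.p14 and gene positions from GENCODE v29 on GRCh38.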

Additional observations from a re-analysis of the deposited data

Results flagged for a closer look

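DNMT3B differed in direction between the lines. Its log2 ratio with DAC+SB was 0.97 in H1299 and -0.74 in HCT116, a difference of 1.71 (1.40 to 2.03), and it came from 211 and 400 counts in H1299 and 674 and 250 in HCT116. The difference was not tested, since each line has 1 library per treatment.

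DNMT3A differed in direction by mitotic signal under DMSO, with a lower level in H1299 cells with signal and a higher one in HCT116 cells with signal, a difference of -1.36 on the log2 scale. The cells without signal held 84 DNMT3A counts in H1299 and 27 in HCT116, and the difference was not tested. Over the alternatives the log2 ratio was between -0.86 and -0.32 in H1299 and between 0.20 and 0.61 in HCT116. The signs held, but the size of the difference depended on the processing.

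UHRF1 also differed in direction by mitotic signal under DMSO, by 0.80 on the log2 scale as H1299 minus HCT116. This difference was not tested either, and the H1299 value of 0.48 became -0.47 when unthinned cells were split at the library's median mitotic share.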

How the results depend on the processing

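The counts of called genes moved most with the fold. At 1.5-fold, 5 genes were lower and 1 higher in H1299 (21.3% and 24.9% of all genes), 8 lower in HCT116 (35.2%), 3 different between lines under DMSO (55.3%), and 4 and 2 different by mitotic signal in H1299 DMSO and HCT116 DMSO (14.9% and 8.84%). At 4-fold these were 0 lower in H1299 (0.349% of all genes), 1 (UHRF1) lower in HCT116 (3.69%), 0 between lines under DMSO (18.0%) or DAC+SB (13.6%), and 0 by mitotic signal in both HCT116 libraries (0.296% with DMSO, 0.701% with DAC+SB) and in treated H1299 (1.95%). In cells without S phase signal, 1 gene (TET2) was lower in H1299 (6.23% of all genes), 0 in HCT116 (527 of 4385 genes), and 0 differed between lines under DMSO (25.1%). These zeros come from the minimum of 100 counts. Under it, UHRF1, TET2, DNMT3A, DNMT3B, TET1 and TET3 were at -2.03, -2.04, -1.91, -1.38, -1.15 and -1.04 with DAC+SB in HCT116. Between lines, DNMT3B, DNMT3A, UHRF1, TET1, TET3 and UHRF2 were at -2.59, 1.59, -1.35, -1.74, -1.22 and 1.05. The values in HCT116 and between lines came from only 6 to 80 counts per library. That of TET1 in HCT116 had an interval of -2.34 to 0.11. Which genes would be called at greater depth is not known. Also under the minimum were UHRF2 at -1.11 (90 and 44 counts) and DNMT3B at 1.23 (62 and 6 counts) with DAC+SB in H1299. In cells without mitotic signal 1 (UHRF1) was lower in HCT116 (22.3% of all genes), where TET2, TET1 and DNMT3A, at -1.93, -1.32 and -1.08, were under the minimum. TET3 in H1299 was at -0.9998 there, with 56 and 39 counts (7.45% of all genes called lower). TET1 and DNMT3B in H1299, at -1.09 and 3.15 in that class, were under the minimum too. Between lines under DMSO that class called UHRF1, at -1.39 (28.5% of all genes), while DNMT3B and DNMT3A were at -3.57 and 1.65 with under 100 counts. As a mean over cells 1 gene (DNMT3B, at 1.06) was higher in H1299 (18.3% of all genes), and TET3 there was at -0.98 (7.10% lower). Between lines under DAC+SB, TMM and median ratios left 1 (DNMT3A), beside 36.4% and 36.2% of all genes. By mitotic signal in HCT116 DAC+SB, limits of 1 or 5 list counts left 1 (UHRF1), beside 2.37% and 4.24% of all genes, and the unthinned split 0 (1.37%). In treated H1299 that split left DNMT1 and UHRF1 (4.48%) and ended the call of DNMT3B. For the last, the cause was not tested. In all, 107 of 130 counts stayed within 1.5 times, 101 with the same genes called, and 605 of 640 log2 ratios of the 8 genes kept their sign. No called gene reversed. No paired analysis was possible because the labels carry no replicate numbers and each group is 1 library. Culture, capture and library effects cannot be told apart from line and treatment.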

Other observations

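TE counts, the main subject of the study's title, were also read beside the methylation genes. The median TE share of a thinned cell was 2.36% in H1299 DAC+SB cells with a DNMT1 count and 2.67% in those without, and 4.68% and 4.97% in HCT116 DAC+SB. In the DMSO libraries both medians were 0.182% in H1299 and 0.273% in HCT116. For UHRF1 the medians with and without a count were 2.30% and 2.61% in treated H1299 cells, and 4.89% and 4.85% in treated HCT116 cells. Cells with S phase signal had a median TE share of 2.24% in H1299 DAC+SB and 4.64% in HCT116 DAC+SB, against 2.91% and 5.03% in cells without. These are values of cells within single libraries, without a test.

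UHRF2 reached 14 counts in 1 cell of HCT116 DMSO, where the highest count in a cell of the other libraries was 4 to 6. The highest per-cell counts of DNMT1 were 31 (DMSO) and 24 (DAC+SB) in H1299, and 20 (DMSO) and 13 (DAC+SB) in HCT116. DNMT3L, the cofactor of the de novo methyltransferases, had 0 and 2 counts with DMSO in H1299 and HCT116 and 44 and 64 with DAC+SB, below the minimum of 100. DNMT3L was named after its values were seen.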
